A study of Mus musculus with 6 samples.

Results

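Nuclei with the transcripts of liver sinusoidal endothelium were taken from single nucleus RNA sequencing of 6 mouse livers. A nucleus was kept when it had over 200 and under 5000 genes and under 5% mitochondrial UMIs (unique molecular identifiers, each counting 1 captured transcript). It was called endothelial when at least 3 of 7 genes, Stab2, Ptprb, Flt1, Kdr, Tek, F8 and Cdh5, were detected and the sum of Ptprc, Skap1, Dcn, Reln and Pkhd1 was at most 1 UMI. It was called sinusoidal when the UMIs of Stab2, Clec4g and Bmp6 together exceeded those of Esm1, Emcn, Pcdh17, Adgrl4 and Efnb2. The nuclei were thus chosen by measured UMIs of 19 genes, and levels of those genes are no finding. This gate held 2175 of 39012 kept nuclei (41882 barcodes in all). Another 1960 nuclei passed the endothelial steps without an excess of sinusoidal UMIs and are called capillary-like here. They are the closest comparison.

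All 6 animals were male DIAMOND mice, a cross of 129A1/SvIm and C57BL/6J that started on its diet at 2 months of age, and each group held 2 mice. Ctrl mice had chow for 40 weeks. Pre-T mice had the Western diet, high in fat and given with sugar water, for 40 weeks, and are classed as before tumor. Post-T mice had the Western diet for 48 weeks and are classed as after tumor. The titles of the Post-T libraries name tumor while their tissue label is liver, and no chow mouse was kept for 48 weeks, so tumor, diet time and age cannot be told apart. The groups were housed in different cages, and each mouse is 1 library of snap-frozen liver.

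Sinusoidal endothelium lines the capillaries between the plates of hepatocytes. It has pores instead of a closed wall and lacks an organized basement membrane. Its scavenger receptors, among them stabilin-1 and stabilin-2 (Stab1, Stab2) and the mannose receptor (Mrc1), clear waste molecules from blood. It also signals to hepatocytes: Bmp6 and Bmp2 drive the iron hormone hepcidin, and endothelial Wnt ligands with R-spondin 3 (Rspo3) maintain the gene program around the central vein. Loss of pores with gain of basement membrane is known as capillarization.

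The libraries held 22453658 to 40307564 UMIs, and 7 to 21 cell barcodes were shared by a pair of libraries, with no sinusoidal nucleus among them. Sinusoidal nuclei numbered 491 and 526 in Ctrl, 158 and 384 in Pre-T and 122 and 494 in Post-T. Their median depth was 1618 to 2130 UMIs, and their summed UMIs ranged from 409267 in Post-T 1 to 1368640 in Ctrl 1, so values in Post-T 1 and Pre-T 1 (500040 UMIs) rest on the fewest molecules. Genes were compared on these sums, with the mouse as the replicate, and levels are given as CPM, UMIs of a gene scaled to a common total for the sinusoidal nuclei of each mouse. A run of 6 values gives the mice of Ctrl first, then those of Pre-T, then those of Post-T, each by number. Such a level cannot separate fewer expressing cells from less RNA per cell.

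The markers that define the gate followed its construction and are described without a test. Stab2 (chr10:86841198-87008025) stood at 3485, 4233, 3458, 2892, 2211 and 3828 CPM in sinusoidal nuclei and at 351 to 1236 CPM in capillary-like nuclei. Clec4g, a lectin of sinusoidal endothelium, was at 236, 384, 268, 339, 61.1 and 135 CPM, lowest in both Post-T mice. Bmp6 was at 641, 793, 484, 235, 151 and 606 CPM. Esm1, a gene of sprouting capillaries that counts against a nucleus in the gate, was at 3.65, 11.8, 44, 23.4, 61.1 and 220 CPM, highest in Post-T 2. Of the 2175 nuclei, 399 passed with an excess of only 1 UMI, 427 endothelial nuclei fell just outside with an excess of 0, 579 carried exactly 3 of the 7 genes, and 517 had 1 UMI of another class.

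Genes of scavenging that the gate did not use also stood higher in sinusoidal nuclei. Stab1 was at 252 to 549 CPM in sinusoidal and 176 to 356 in capillary-like nuclei, with Post-T 1 the only mouse in which the capillary-like value was higher (252 against 345). Mrc1 was at 347 to 1031 CPM against 203 to 477, higher in sinusoidal nuclei in every mouse. The IgG receptor Fcgr2b was at 85.5 to 310 CPM against 18.6 to 158, again higher in every mouse. The vascular genes went the other way. Vwf, the clotting carrier of larger vessels, stood at 4.76 to 103 CPM against 7.52 to 507, Mecom at 113 to 387 against 364 to 1569.6, and Wnt9b, a Wnt ligand of central vein endothelium, at 0 to 5.9 against 0 to 151 CPM.

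**Figure D1:**
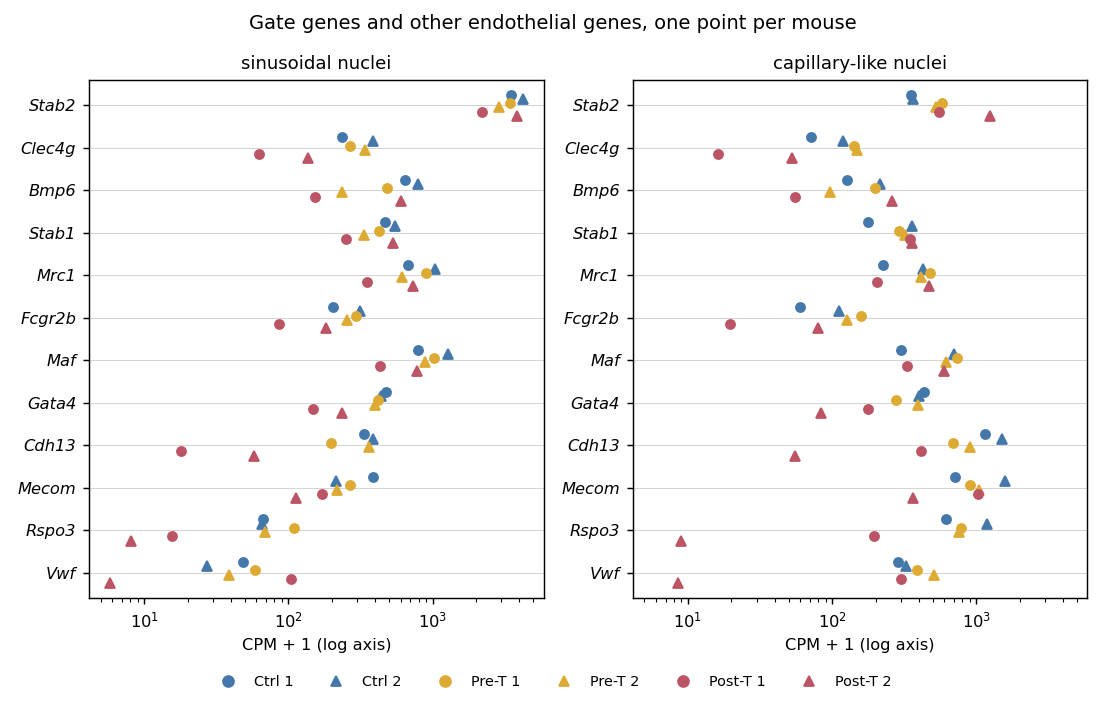
Levels of 3 gate genes (Stab2, Clec4g, Bmp6) and 9 other endothelial genes in sinusoidal (left) and capillary-like nuclei (right). Each point is 1 mouse, the x axis is CPM + 1 on a log axis, and colors give the group. Stab2 was at 2211 to 4233 CPM on the left and 351 to 1236 on the right, whereas Mecom was higher on the right.

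The share of sinusoidal nuclei among all kept nuclei was 6.79% (95% exact binomial interval 6.22 to 7.39) and 6.77% (6.22 to 7.35) in Ctrl, 2.92% (2.49 to 3.41) and 4.89% (4.43 to 5.4) in Pre-T, and 2.25% (1.87 to 2.68) and 9.28% (8.51 to 10.1) in Post-T. The intervals cover counting error only. Both Pre-T mice lay under both Ctrl mice, by 2.87 percentage points in the mean (exact two-sided permutation test, p = 0.33). The Post-T mice lay on either side of Ctrl, and their mean was 5.76% ± 4.97 (SD, n = 2), beside 6.78% ± 0.0158 in Ctrl and 3.91% ± 1.39 in Pre-T. The sign of the Post-T difference from Ctrl turned with 1 mouse: it was 2.5 points without Post-T 1 and -4.53 without Post-T 2.

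Among endothelial nuclei that passed the shared gate, 74.2% (70.7 to 77.5) and 68.3% (64.9 to 71.6) were sinusoidal in Ctrl, 46.5% (41.1 to 51.9) and 67.5% (63.5 to 71.3) in Pre-T, and 24.1% (20.4 to 28.1) and 38.4% (35.7 to 41.1) in Post-T. With this gate each Pre-T mouse lay below both Ctrl mice and above both Post-T mice, with means of 71.2% ± 4.14, 57% ± 14.9 and 31.2% ± 10.1 (SD, n = 2 each). The difference of -40 points between Post-T and Ctrl had an exact permutation p of 0.33, the smallest that 2 against 2 mice allow. The 4 Western diet mice lay below Ctrl by 27.1 points in the mean (exact two-sided permutation test, p = 0.133). That is the smallest p this test can give for 4 against 2 mice. The place of Pre-T 2 depended on the gate: it lay above Ctrl 2 with at least 4 of 7 endothelial genes (68.6% against 68.4%) and with a margin of at least 3 UMIs (81.8% against 79.1%), where the exact permutation p for the Western diet mice was 0.267. Without Pre-T 1 the difference of Pre-T from Ctrl was -3.75 points, beside -14.3 with both mice. The gate genes Clec4g and Esm1 themselves stood at other levels in Post-T than in Ctrl, so this share also counts their levels, and it is a description. Thinning each nucleus to 500 UMIs gave differences of -19.3 points for Pre-T and -35.2 for Post-T against Ctrl, with Pre-T 1 (43.2%) then below Post-T 2 (46.7%).

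**Figure D2:**
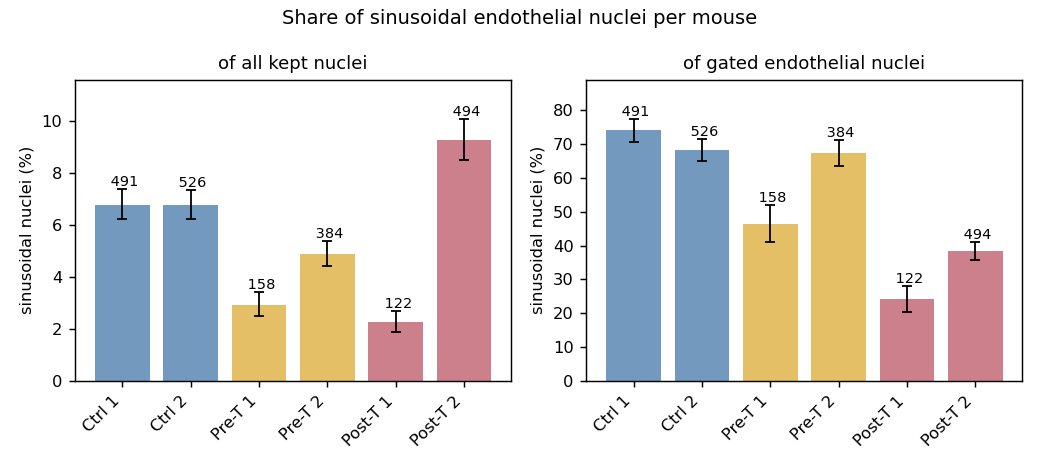
Sinusoidal nuclei as a percent of all kept nuclei (left) and of gated endothelial nuclei (right), 1 bar per mouse, with 95% exact binomial intervals and the number of sinusoidal nuclei above each bar. On the left the Post-T mice stand at 2.25% and 9.28%, on both sides of Ctrl. On the right both Post-T bars (24.1% and 38.4%) lie below those of Ctrl and Pre-T.

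The comparison of Pre-T with Ctrl asks what 40 weeks of Western diet did before tumor. In edgeR's quasi-likelihood test with Benjamini-Hochberg adjustment, 27 of 17300 genes passed (13 higher and 14 lower in Pre-T, 0.156% of those tested, adjusted p under 0.05). Only 7 of the 27 had a higher level in sinusoidal nuclei than in the other kept nuclei of the mouse, and 3 of them by at least 2-fold. Those 3 all rose. Without Ctrl 1, without Ctrl 2 or without Pre-T 1, the test called no gene (806, 942 and 1180 genes at an unadjusted p under 0.05), and without Pre-T 2 it called 3. With a minimum of 10 UMIs per gene it called 0 (1587 at an unadjusted p under 0.05). A mouse left alone in its group is then assumed to vary like the others.

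Cfap69, a gene of cilia and flagella, was at 4.38 and 0.843 CPM in Ctrl, 88 and 155 in Pre-T and 171 and 55.5 in Post-T. All 4 Western diet mice were above both Ctrl mice, and the log2 fold change of Pre-T against Ctrl was 5.31 ± 0.69 (SE, edgeR adjusted p = 0.0264). Xylt1, the enzyme that starts the sugar chains of proteoglycans, was at 15.3, 20.2, 124, 94.4, 442 and 277 CPM, in a stepwise order of groups without overlap. Its log2 fold change was 2.46 ± 0.33 (edgeR adjusted p = 0.0264). Lack of overlap between Pre-T and Ctrl was a condition for naming Cfap69 and Xylt1, and it held for 43.6% of all 17300 genes tested. How many genes had an order of all 3 groups, or all 4 Western diet mice above Ctrl, was not counted. Gm20663, annotated as an antisense transcript, rose as well, but reads from it and its partner cannot be told apart here since the strand setting of the count is not given.

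Among the functional lists only 2 of 307 tested genes passed (0.651%, beside 0.156% of all genes), both higher in Pre-T. Hgf, hepatocyte growth factor, was at 35.1 and 43.8 CPM in Ctrl and 184 and 191 in Pre-T, with 83.1 and 65.8 in Post-T. The Pre-T values were well above the rest, with a log2 fold change of 2.12 ± 0.29 (edgeR adjusted p = 0.0264). In the other nuclei the same gene was at 119 to 162 CPM in Pre-T and 129 to 231 in Ctrl, with no such rise.

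H2-Aa, an MHC class II chain that presents antigen, was at 5.12, 3.37, 46, 89, 7.33 and 6.34 CPM, high only in the Pre-T mice, with a log2 fold change of 3.85 ± 0.50 (edgeR adjusted p = 0.0264). Its list of antigen presentation and interferon genes had 27 of 29 members higher in Pre-T than in Ctrl and a median log2 fold change of 0.95, against 0.01 over all genes, though H2-Aa was the only member that passed. Among members that did not pass, the class I gene H2-K1 was at 246, 264, 360, 620, 320 and 373 CPM. Macrophage transcripts moved alongside. Lyz2, lysozyme of macrophages, was at 8.77, 6.75, 78, 197, 14.7 and 7.13 CPM in sinusoidal nuclei and at 10.2, 9.65, 126, 255, 17.9 and 7.71 in other nuclei. The macrophage marker list summed to 0.0194% and 0.0279% of UMIs in Ctrl, 0.0402% and 0.0982% in Pre-T, and 0.0188% and 0.00428% in Post-T. Of its 14 members, 10 were higher in Pre-T. In both Pre-T mice Cd163 and Marco were at 0 and the remaining 12 markers were detected. Their part in the class II values was not tested.

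The other genes named in this comparison had lower levels in sinusoidal than in other nuclei. Mmp12, an elastase of macrophages, had no UMI in either Ctrl mouse and 30 and 27.9 CPM in Pre-T, at least 24.3-fold higher by a floor of 3 counts over the Ctrl group. In other nuclei it was at 0.554, 1.5, 55.4 and 90.8 CPM. Osbpl3 and Ifi27l2b also rose. Etnppl, an enzyme of phospholipid breakdown, fell from 473 and 526 CPM to 8.0 and 23.4, and in other nuclei it went from 639 and 891 to 15.9 and 25.7 CPM. Grm8, Gpc6, Hsd17b6 and the lincRNA Gm36264 fell too.

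The comparison of Post-T with Ctrl asks what differed after tumor. It called 292 of 17300 genes (117 higher and 175 lower, 1.69% of those tested), of which 97 had a higher level in sinusoidal than in other nuclei (56 higher and 41 lower in Post-T) and 45 by at least 2-fold (33 and 12). Of the 44 genes named for this comparison, none passed without Ctrl 1 or without Ctrl 2, when the test called 0 genes (1271 and 1534 at an unadjusted p under 0.05). Of them 22 were lost under no other left-out mouse, 19 did not pass once Post-T 2 was left out, 6 once Post-T 1 was, and 13 once either Pre-T mouse was. The count rose to 560 without Post-T 1 and fell to 192 without Post-T 2.

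Markers of other cell types were also compared between Post-T and Ctrl. The stellate and fibroblast markers took 0.0161% and 0.0121% of sinusoidal UMIs in Ctrl and 0.00782% and 0.00349% in Post-T, with 10 of 11 tested members lower and 0 called in edgeR (3 at an unadjusted p under 0.05, 0 in DESeq2). All 8 cholangiocyte markers were lower, with 0 called in edgeR or DESeq2 (1 at an unadjusted p under 0.05), and all 7 mesothelial markers were, of which Gpm6a passed. Lymphocyte markers took 0.0221% and 0.0139% in Ctrl and 0.00684% and 0.00793% in Post-T, with 7 of 13 tested members lower and 6 higher, of which Bank1 passed as lower. Of the 14 macrophage markers 8 were lower and 6 higher, and Clec4f and Vsig4 passed as lower. Lymphatic markers took 0.0406% to 0.0492% in all mice. Their part in the results was not tested.

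A pair of potassium channel genes led the rises among genes enriched in sinusoidal nuclei. Kcnj2, an inward rectifier (ENSMUSG00000041695, chr11:111066164-111076821), was at 1.46, 1.69, 20, 13.5, 63.5 and 95.9 CPM, a log2 fold change of 5.71 ± 0.53 (edgeR adjusted p = 0.00189). Kcne3, an accessory subunit of potassium channels (ENSMUSG00000035165, chr7:100176502-100184869), was at 2.19, 2.53, 18, 15.3, 58.6 and 112 CPM, a log2 fold change of 5.28 ± 0.55 (edgeR adjusted p = 0.0028). Both had an order of Ctrl, Pre-T and Post-T without overlap. Lack of overlap between Post-T and Ctrl was a condition for naming them, and it held for 43.1% of all 17300 genes tested. How many genes had such an order of all 3 groups was not counted. In nuclei with a sinusoidal excess of at least 3 UMIs the changes of Kcnj2 and Kcne3 were 5.94 and 5.52.

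Promoters of both genes are shown with those of Ednrb, the gene of vascular tone that rose, and Id3, the gene of the BMP pathway that fell, since the account of Post-T turns on these 4. Each runs from 250 bases before to 50 bases after the transcription start (RefSeq, GRCm38.p6). For Ednrb and Kcne3 this start lies inside the gene span given in this report (GENCODE), and windows at the GENCODE start were not searched. Capitals mark the letters ACGTG on either strand (CACGT on the reverse, overlapping in CACGTG), the core of the hypoxia response element.
Kcnj2 (chr11:111065914-111066213, plus strand): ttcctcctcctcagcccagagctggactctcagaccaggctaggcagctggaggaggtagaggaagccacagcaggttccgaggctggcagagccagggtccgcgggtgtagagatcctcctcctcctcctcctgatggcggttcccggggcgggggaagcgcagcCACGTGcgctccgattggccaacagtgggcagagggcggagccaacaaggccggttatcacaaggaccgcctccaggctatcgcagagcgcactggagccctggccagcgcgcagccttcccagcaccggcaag
Kcne3 (chr7:100176420-100176719, plus strand): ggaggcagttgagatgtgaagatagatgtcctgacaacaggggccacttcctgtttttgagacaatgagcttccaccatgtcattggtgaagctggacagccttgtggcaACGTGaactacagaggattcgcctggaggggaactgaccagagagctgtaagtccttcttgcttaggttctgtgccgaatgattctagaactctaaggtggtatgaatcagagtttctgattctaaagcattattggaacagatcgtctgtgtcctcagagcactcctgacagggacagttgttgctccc
Ednrb (chr14:103843652-103843951, minus strand): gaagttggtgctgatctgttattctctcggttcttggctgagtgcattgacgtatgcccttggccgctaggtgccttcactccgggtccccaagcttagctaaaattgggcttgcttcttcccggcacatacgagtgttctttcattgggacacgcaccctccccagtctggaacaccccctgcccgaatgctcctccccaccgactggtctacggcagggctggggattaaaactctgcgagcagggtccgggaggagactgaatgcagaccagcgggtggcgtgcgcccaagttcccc
Id3 (chr4:136143572-136143871, plus strand): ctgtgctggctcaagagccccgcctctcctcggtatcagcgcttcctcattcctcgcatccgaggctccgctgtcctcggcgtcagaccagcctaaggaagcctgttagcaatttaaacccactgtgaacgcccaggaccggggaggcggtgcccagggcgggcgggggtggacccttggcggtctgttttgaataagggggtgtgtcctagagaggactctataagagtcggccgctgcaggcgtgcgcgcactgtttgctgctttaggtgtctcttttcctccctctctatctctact
The core was matched 2 times in the Kcnj2 window, once on each strand of the same palindrome, and 1 time in that of Kcne3, and these letters were not in the windows of Ednrb and Id3. The core was in 19.6% of all 32851 RefSeq promoters. Of the 75 genes named for any comparison 49 had a RefSeq promoter, and 13 of these (26.5%) held it, which is a description of letters and shows nothing of binding.

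Further rises among enriched genes covered secreted signals and scaffolds. Inhbb, the beta B subunit of activin and a ligand of the TGF-beta family, was at 3.65, 1.69, 14, 9.89, 44 and 49.9 CPM, a log2 fold change of 4.16 ± 0.51 (edgeR adjusted p = 0.00481). Akap12, a scaffold that anchors protein kinase A, was at 27, 21.1, 36, 48.5, 274 and 255 CPM, with Post-T far above the other 4 mice (3.52 ± 0.34, edgeR adjusted p = 0.00195). Xylt1 reached a log2 fold change of 4.37 ± 0.34 (edgeR adjusted p = 0.00118). Trp53i11 and the lincRNA D5Ertd615e rose by 3.6 and 3.68 on the log2 scale. Stc1, a secreted glycoprotein hormone, had 3 UMIs over both Ctrl mice and 38 in Post-T, a ratio of CPM of 19.4 with a counting interval of 6.14 to 98.1. Gm3294, with 3 UMIs in Ctrl, had a ratio of 22.4 (7.19 to 113).

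**Figure D3:**
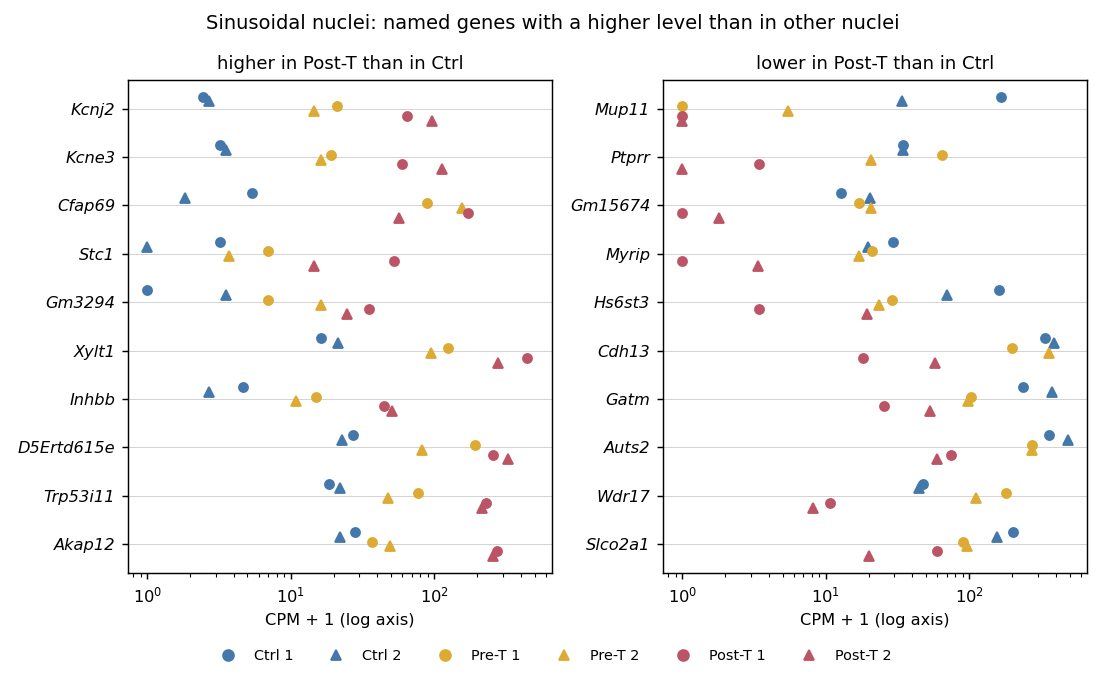
Named genes with at least 2-fold higher levels in sinusoidal than in other nuclei that were higher (left) or lower (right) in Post-T than in Ctrl. The fold is from a mean log2 ratio over mice with 0.5 added to each count. Each point is 1 mouse and the x axis is CPM + 1 on a log axis, so a mouse with no UMI sits at 1. Pre-T mice lie between the other groups for Kcnj2, Kcne3 and Inhbb, and for Akap12 the Post-T mice stand at 274 and 255 CPM against 21.1 to 48.5 in the rest.

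Falls among enriched genes included adhesion, transport and metabolic genes. Cdh13, T-cadherin of endothelial surfaces (ENSMUSG00000031841, chr8:118283733-119324921), was at 335, 385, 196, 359, 17.1 and 57.1 CPM, a log2 fold change of -3.0 ± 0.55 (edgeR adjusted p = 0.0271). In capillary-like nuclei its level was 1148 and 1503 CPM in Ctrl and 413 and 54.1 in Post-T. Auts2, a regulator of transcription, was at 359, 487, 272, 272, 73.3 and 58.7 CPM (-2.61 ± 0.31, edgeR adjusted p = 0.0042), and Gatm, an enzyme of creatine synthesis, at 235, 377, 102, 97.1, 24.4 and 52.3 CPM (-2.76 ± 0.43, edgeR adjusted p = 0.0148). Slco2a1, a prostaglandin transporter, fell by 2.31 and Wdr17 by 2.37 on the log2 scale, and both lost their call without Post-T 2. Hs6st3, an enzyme of heparan sulfate, fell from 160 and 69.1 to 2.44 and 18.2 CPM.

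Rarer transcripts also fell, and these rest on few molecules. Ptprr, a tyrosine phosphatase, was at 33.6, 33.7, 64 and 19.8 CPM in Ctrl and Pre-T and had 1 UMI in Post-T, a ratio of 0.0178 (counting interval 0.000445 to 0.102). Myrip had 3 UMIs in Post-T (a ratio of 0.0752, 0.0151 to 0.23) and the antisense gene Gm15674 had 1. Mup11, a urinary protein gene of a family with near-identical copies that the count may have split, was at 167 and 32.9 CPM in Ctrl and had no UMI in Post-T. Myrip, Gm15674 and Mup11 passed in edgeR but not in DESeq2 (adjusted p = 0.0599, 0.0983 and 0.0702), and each lost its call when any 1 mouse was left out.

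Of the 307 tested members of 14 functional lists, 16 passed between Post-T and Ctrl (12 higher and 4 lower, 5.21% beside 1.69% of all genes). Of 17 scavenger and endocytic receptors 0 passed in edgeR, 7 had an unadjusted p under 0.05 and 2 passed in DESeq2, with a median log2 fold change of -0.13, against -0.09 over all genes. Of these, Dab2, a clathrin adaptor of endocytosis, is named after its values were seen. It was at 568, 626, 478, 450, 205 and 273 CPM, lowest in both Post-T mice (-1.21, edgeR adjusted p = 0.118, DESeq2 adjusted p = 0.0472). Stab1 was at 467, 549, 422, 334, 252 and 533 CPM, and Lyve1, a hyaluronan receptor, at 28.5, 37.1, 66, 54.8, 41.5 and 101 CPM. Of 25 endothelial transcription factors 0 passed in edgeR or DESeq2 and 5 had an unadjusted p under 0.05, with 17 lower in Post-T and a median of -0.32. Gata4, which sets sinusoidal identity in development, was at 476, 438, 414, 395, 147 and 234 CPM, where both Post-T mice were the lowest, without passing (-1.13, edgeR adjusted p = 0.18).

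Over the Wnt and zonation list the median log2 fold change was -1.0, and 2 of 20 members were lower and none higher by the test. The 2 were Cdh13 and Rspo3. Rspo3 (ENSMUSG00000019880, chr10:29452416-29535867) was at 65.8, 64.9, 108, 67.4, 14.7 and 7.13 CPM, with both Post-T mice below the other 4 (-2.65 ± 0.41, edgeR adjusted p = 0.0139). It was higher in capillary-like nuclei, at 619, 1183, 780, 756, 194 and 8.02 CPM, and it no longer passed without Post-T 2. Wnt2, the sinusoidal Wnt ligand, was at 22.6, 54.8, 24, 41.3, 14.7 and 10.3 CPM and did not pass (-1.57, edgeR adjusted p = 0.196). The summed level of 16 markers of arterial, portal and venous endothelium was 0.0315% to 0.0566% of UMIs in Ctrl and Pre-T. It was 0.0437% and 0.0312% in Post-T. Of the 16, 9 were lower and 7 higher in Post-T than in Ctrl, with a median log2 fold change of -1.14, against -0.09 over all genes. In capillary-like nuclei the sum had a mean of 0.199% in Ctrl and 0.0724% in Post-T. The part of these markers in the fall of Rspo3, which is on that list, was not tested.

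Of 25 BMP and TGF-beta genes, Inhbb rose and Id3 fell. Id3, a direct target of BMP receptors that blocks helix-loop-helix factors, was at 85.5, 128, 118, 136, 12.2 and 15.1 CPM, a log2 fold change of -2.78 ± 0.38 (edgeR adjusted p = 0.00738). In other nuclei it went from 46.2 and 67.5 CPM in Ctrl to 11 and 2.97 in Post-T. Id1, its relative, was at 27, 22.8, 22, 23.4, 0 and 7.13 CPM and did not pass (edgeR adjusted p = 0.158). The ligand Bmp2 was at 132, 196, 142, 73.7, 19.5 and 114 CPM and the inhibitor Smad6 at 389, 394, 224, 294, 137 and 192 CPM, neither past the test.

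In the VEGF, angiopoietin and semaphorin list 13 of 19 tested members were higher and 6 lower in Post-T. The median was 0.45, against -0.09 over all genes, and Angpt2 alone passed. The summed level of the list went the other way, with a mean of 0.432% of UMIs in Ctrl and 0.356% in Post-T. Angpt2, the ligand that destabilizes vessels through Tie2, was at 19.7, 28.7, 46, 44.9, 61.1 and 253 CPM, a log2 fold change of 2.92 ± 0.62 (edgeR adjusted p = 0.0483). Post-T 2 carried most of this rise, and Angpt2 did not pass without it. Apln, a peptide of sprouting tip cells, was at 0.731, 0.843, 0, 0.899, 4.89 and 17.4 CPM and did not pass (edgeR adjusted p = 0.0905). Of 18 tested Notch genes 0 passed in edgeR or DESeq2 and 4 had an unadjusted p under 0.05. The ligand Dll4 was at 39.5, 44.7, 60, 27, 68.4 and 143 CPM.

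Of 24 tested capillarization and basement membrane genes, 1 rose. Col4a2, a chain of basement membrane collagen IV, was at 126, 102, 126, 116, 283 and 326 CPM, a log2 fold change of 1.51 ± 0.31 (edgeR adjusted p = 0.0435), and it lost its call without either Pre-T mouse or without Post-T 2. Its partner chain Col4a1 was at 163, 116, 234, 152, 332 and 362 CPM (1.4, edgeR adjusted p = 0.0778). Cd34, a marker of continuous capillaries, was at 11, 3.37, 14, 9.89, 31.8 and 26.2 CPM (edgeR adjusted p = 0.11). Plvap was at 18.3 to 48.5 CPM in all mice.

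Ednrb, endothelin receptor B that triggers nitric oxide release in endothelium (ENSMUSG00000022122, chr14:103814625-103844402), was the single one of 20 flow, tone and nitric oxide genes to pass. It was at 8.04, 2.53, 18, 16.2, 137 and 133 CPM, a log2 fold change of 4.68 ± 0.46 (edgeR adjusted p = 0.00221), and the change was 5.18 in nuclei with a sinusoidal excess of at least 3 UMIs. Capillary-like nuclei held more in each mouse, at 45.1, 25.2, 74.2, 81, 377 and 202 CPM. Nos3, the nitric oxide synthase of endothelium, was at 36 to 63.5 CPM in all 6 mice (0.03, edgeR adjusted p = 0.976). The flow-responsive factor Klf2 was at 39.5, 30.4, 26, 35.1, 29.3 and 7.93 CPM.

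Leukocyte adhesion and chemokine genes moved both ways. Cxcl12, the chemokine that holds CXCR4-bearing cells, was at 104, 86.8, 50, 57.5, 19.5 and 5.55 CPM (-3.14 ± 0.46, edgeR adjusted p = 0.0116), and in other nuclei at 176, 165, 86.9, 125, 37.4 and 11.7 CPM. Ackr2, a decoy receptor that removes chemokines, was at 4.38, 5.06, 12, 14.4, 26.9 and 26.2 CPM (2.56 ± 0.47, edgeR adjusted p = 0.0275). Both lost their call without Post-T 2, and Ackr2 did not pass in DESeq2 (adjusted p = 0.0528). Vcam1, an adhesion molecule, was at 17.5, 65.8, 114, 142, 12.2 and 23.8 CPM, highest in Pre-T, without passing in edgeR, while DESeq2 called its fall from Pre-T to Post-T (adjusted p = 0.041).

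Lipid handling genes rose in 3 of 28 cases. Fabp4, a fatty acid carrier of capillary endothelium (ENSMUSG00000062515, chr3:10204088-10208576), was at 26.3, 37.9, 130, 110, 151 and 185 CPM (2.51 ± 0.34, edgeR adjusted p = 0.00738). Pparg, the fatty acid sensing nuclear receptor that drives Fabp4 in other tissues, was at 48.2, 75, 216, 129, 298 and 250 CPM (2.23 ± 0.34, edgeR adjusted p = 0.0133), and the insulin receptor Insr at 344, 420, 554, 499, 1099.5 and 1339.6 CPM (1.78 ± 0.34, edgeR adjusted p = 0.0333). All 4 Western diet mice exceeded both Ctrl mice for each. Between Post-T and Ctrl, the groups did not overlap for 43.1% of all genes tested. Pparg moved likewise in other nuclei (57.7 and 55.7 CPM in Ctrl, 391 and 212 in Post-T), where Insr was at 359 and 488 CPM in Ctrl and 443 and 517 in Post-T. The scavenger and fatty acid receptor Cd36 was at 85.5, 162, 368, 364, 283 and 224 CPM, without passing between Post-T and Ctrl (edgeR adjusted p = 0.149).

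The lists of cytokines and of cell cycle and stress genes held further calls. Il1r1, the interleukin-1 receptor, was at 235, 282, 622, 395, 784 and 1003 CPM (1.9 ± 0.36, edgeR adjusted p = 0.032), and other nuclei held 1047 and 2724 CPM in Post-T. Fkbp5, a glucocorticoid target, was at 73.8, 136, 152, 135, 491 and 541 CPM (2.4 ± 0.35, edgeR adjusted p = 0.0116). Cdkn1a, the cell cycle inhibitor p21, was at 6.58, 1.69, 30, 39.5, 48.9 and 21.4 CPM (2.94 ± 0.60, edgeR adjusted p = 0.0418), a call lost when any 1 of the 6 mice was left out.

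**Figure D4:**
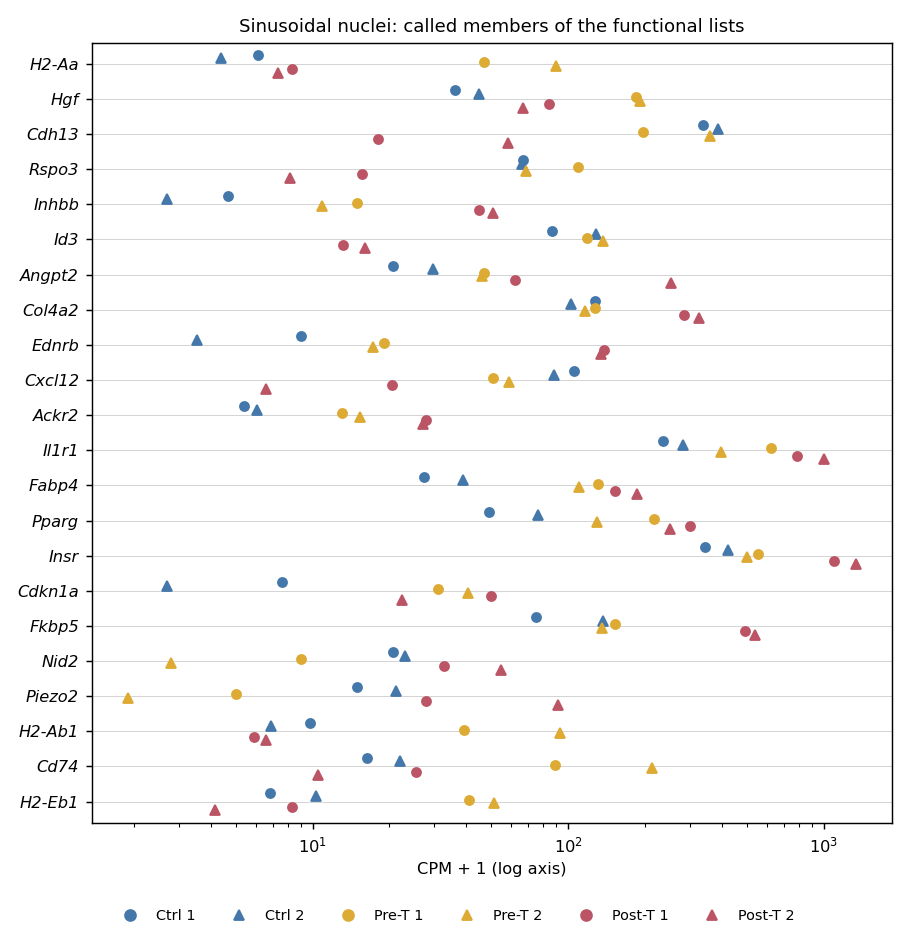
Members of the functional lists that passed the test in at least 1 comparison and are reported, in sinusoidal nuclei. Each point is 1 mouse and the x axis is CPM + 1 on a log axis. H2-Aa, H2-Ab1, H2-Eb1, Cd74 and Hgf are highest in Pre-T, whereas Ednrb, Insr and Fkbp5 are highest and Id3, Rspo3 and Cxcl12 lowest in Post-T.

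Of the 292 calls 1 was a gate gene and is left aside, and 194 had lower levels in sinusoidal than in other nuclei. The 10 named ones changed in the same direction in the other nuclei of the mice. Hamp, the hepcidin of hepatocytes, was at 517, 959, 148, 618, 0 and 0 CPM, at least 402-fold lower in Post-T by a floor of 3 counts over the group, and in other nuclei at 828 and 1656 CPM in Ctrl and 2.03 and 0.661 in Post-T. Hal, which degrades histidine, was at least 336-fold lower, Cyp2f2 at least 114-fold, Gldc at least 107-fold and Aspg at least 73.9-fold. Apoa4, an apolipoprotein, went from 4.38 and 1.69 to 166 and 997 CPM, beside 5.32, 4.81, 160 and 1056 in other nuclei. Rhbg, Ly6d and Gm34664 rose, as did Wif1, at 4.89 and 65.8 CPM in Post-T, which did not pass in DESeq2 (adjusted p = 0.237). The 20 hepatocyte markers took 3.36%, 2.35%, 1.31%, 2.95%, 1.71% and 2.62% of the UMIs of sinusoidal nuclei and 4.36%, 3.26%, 1.65%, 3.29%, 1.7% and 2.98% in non-endothelial nuclei, with no marker at 0. The part of these transcripts in the changes was not tested. In nuclei with under 3% hepatocyte UMIs, 331 genes passed, 207 of them among the 292.

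Post-T against Pre-T compares the Western diet mice with each other. It called 104 genes (35 higher and 69 lower in Post-T, 0.601% of those tested), 38 of them at higher levels in sinusoidal than in other nuclei. It shares the Post-T mice with the comparison to Ctrl and the Pre-T mice with the earlier one, and all come from 1 fit. No gene passed in edgeR without Ctrl 1, without Ctrl 2 or without Pre-T 2 (1567, 1621 and 1246 at an unadjusted p under 0.05), 6 passed without Pre-T 1, and 27 without Post-T 2. A fit on these 4 mice alone called 0 (1583 at an unadjusted p under 0.05).

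Akap12 rose by 2.82 ± 0.33 on the log2 scale (edgeR adjusted p = 0.0218), Ednrb by 3.2 ± 0.43 (edgeR adjusted p = 0.0235), and Kcne3 and Kcnj2 by 2.67 and 2.58. Ptp4a3, a phosphatase of endothelial growth, was at 23.4, 21.1, 18, 17.1, 125 and 88.8 CPM (2.78 ± 0.33, edgeR adjusted p = 0.0218), where Ctrl and Pre-T were close and Post-T stood apart. Apold1, an early response gene of endothelium, was at 13.9, 4.22, 4.0, 7.19, 63.5 and 52.3 CPM (3.41 ± 0.58, edgeR adjusted p = 0.0372). Nid2, a linker of basement membrane, was at 19.7, 21.9, 8.0, 1.8, 31.8 and 53.9 CPM (3.72 ± 0.63, edgeR adjusted p = 0.0372), with Pre-T the lowest group. Lpin3 and the lincRNAs Gm13387, 9630014M24Rik and 4930554G24Rik rose as well.

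Rspo3 fell by 2.9 ± 0.41 and Id3 by 2.91 ± 0.38 on the log2 scale (edgeR adjusted p = 0.0235 and 0.0229), and neither had passed between Pre-T and Ctrl. Wdr17 was at 46.8, 43.8, 180, 111, 9.77 and 7.13 CPM and fell by 3.88 ± 0.40 (edgeR adjusted p = 0.0167). Auts2, Ptprr and the anion transporter gene Slc26a10 fell. Gm16271 fell by 2.51 ± 0.39 (edgeR adjusted p = 0.0303), at 102, 150, 364, 173, 41.5 and 37.3 CPM. It is annotated antisense across chr10:86972216-87028015, which overlaps the gate gene Stab2, so its reads may be those of Stab2. Gm49267, another antisense gene, also fell, and its reads cannot be told apart from those of its partner.

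Of the 307 list members 10 passed (4 higher and 6 lower, 3.26% beside 0.601% of all genes). The antigen presentation list had 24 of 29 members lower in Post-T and a median of -0.62, against -0.09 over all genes. Its 4 called members were class II genes. H2-Ab1 was at 8.77, 5.9, 38, 91.7, 4.89 and 5.55 CPM (-3.37 ± 0.59, edgeR adjusted p = 0.04), H2-Eb1 at 5.84, 9.28, 40, 50.3, 7.33 and 3.17, and Cd74, the class II chaperone, at 15.3, 21.1, 88, 212, 24.4 and 9.51, and H2-Aa fell by 3.12 on the log2 scale. Other nuclei had Cd74 at 36.2, 41.7, 141, 310, 20.8 and 21.9 CPM, and 12 of the 14 macrophage markers were lower in Post-T, of which Cd5l, C1qc, Lyz2 and Vsig4 passed. Of the 14, Cd163 was at 0 in both Post-T mice, Timd4 in Post-T 1, and Clec4f, Marco and Trem2 in Post-T 2. Their part in the class II values was not tested.

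Piezo2, a channel that opens on stretch, had 3 UMIs in Pre-T and 125 in Post-T, a ratio of 40.2 (counting interval 13.4 to 198), and Fkbp5 rose by 2.08 on the log2 scale. Of the other named genes, Sema5a, Wnk4, Ccdc68 and 1810053B23Rik rose from 0 to 12 CPM in Pre-T to 26.9 to 198 in Post-T. Hamp, Gldc, Hal, Cyp2f2 and Mpped2 had no UMI in Post-T. Piezo2, Sema5a, Wnk4, Ccdc68, 1810053B23Rik and these genes had lower levels in sinusoidal than in other nuclei. The part of transcripts of other nuclei in their changes was not tested.

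Capillary-like nuclei of the same mice show which changes differed between the nuclei. The difference of the change was tested in edgeR with the mouse as a block, since both sums of a mouse share animal and library. It passed for 13 of 18574 genes between Pre-T and Ctrl (0.07%), for 108 between Post-T and Ctrl (0.581%) and for 35 between Post-T and Pre-T (0.188%). For Post-T against Ctrl, 37 of the 108 rose more or fell less in sinusoidal nuclei and 71 the reverse. These counts were 43 without Ctrl 1, 16 without Ctrl 2 and 395 without Post-T 2. The gate sorts nuclei by genes that themselves moved, so a nucleus of 1 kind may be counted under the other type in another group.

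The genes below are among those with the smallest p values at a mean of at least 10 CPM and were chosen after their values were seen. Shisa9 was at 8.04, 29.5, 94, 27.9, 39.1 and 91.2 CPM in sinusoidal and at 70.5, 376, 67.6, 133, 63.4 and 35.1 in capillary-like nuclei. Its change from Ctrl to Post-T differed by 4.07 ± 0.40 on the log2 scale (edgeR adjusted p = 1.65e-20). In Post-T 1 Shisa9 was lower in sinusoidal than in capillary-like nuclei, and in Post-T 2 it was higher. With 2 mice a group, so small a p does not convey this spread between mice. Pcdh7, a protocadherin, was at 43.8, 35.4, 44, 16.2, 132 and 77.7 against 163, 295, 203, 239, 97.2 and 52.1 CPM (2.9 ± 0.34, edgeR adjusted p = 1.33e-13). Fmo2, a flavin monooxygenase, differed by 2.55 ± 0.35. In the reverse direction Celf4 (-2.45 ± 0.36), the metalloprotease Adam12 (-2.47 ± 0.37) and Etl4 (-1.64 ± 0.28) had log2 fold changes of 1.88 to 2.57 in capillary-like nuclei, where all but Adam12 passed the test, and of 0.06 to 0.27 in sinusoidal nuclei. With 1 mouse left out the highest edgeR adjusted p was 0.161 for Etl4, which thus lost its call, beside 0.02 for Celf4 and 0.0266 for Adam12.

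Among the 44 genes named for Post-T against Ctrl, 3 had a difference past the threshold, beside 0.581% of all genes tested. The 44 were named for called changes in these same sinusoidal nuclei, which favors a larger change there. Col4a2 changed by 1.51 in sinusoidal and 2.79 in capillary-like nuclei, Fabp4 by 2.51 and 1.27, and Il1r1 by 1.9 and 0.89. For Kcnj2 both changes were 5.71 and 4.81, for Ednrb 4.68 and 3.19, and for Rspo3 -2.65 and -3.07, and these differences did not pass (edgeR adjusted p = 1, 0.113 and 0.599).

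**Figure D5:**
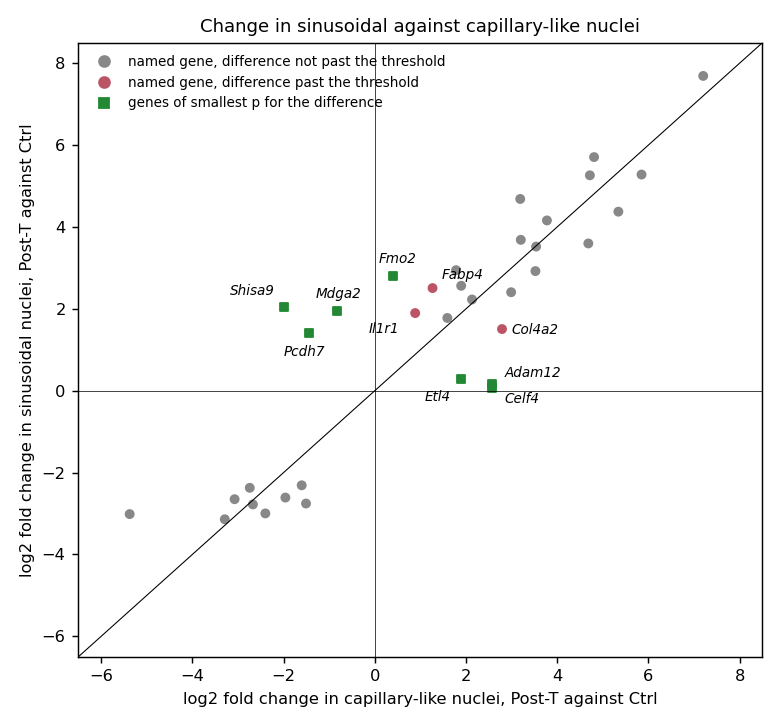
Log2 fold changes of Post-T against Ctrl in capillary-like (x axis) and sinusoidal nuclei (y axis), fitted in edgeR. Circles are 28 of the 44 named genes, without 15 that had at most 3 UMIs in a group and 1 not reported, red where the difference between the nuclei passed the test, and green squares are 7 genes among those with the smallest p for that difference. The line marks equal change, with Shisa9, Pcdh7, Mdga2 and Fmo2 above it and Etl4, Adam12 and Celf4 below it.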

How the data were processed

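Nuclei came from snap-frozen liver, and a sequencing company made the 10x 3′ libraries (chemistry v3.1). The authors deposited UMI counts per gene and barcode, raw and not normalized, from Cell Ranger 6.1.1 on mm10, as the submitters' processing notes and the file headers state. Whether introns or strand entered the count is not given in the sources used here, so overlapping and antisense genes are uncertain.

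Groups were taken from the labels. The members and gene lists were chosen with earlier results of these data known. UMIs were summed per mouse over the sinusoidal nuclei, and genes with at least 3 UMIs over the 6 mice were fitted in edgeR 4.0.16 (R 4.3.3, limma 3.58.1; quasi-likelihood test, TMM, 3 residual degrees of freedom, Benjamini-Hochberg adjusted p under 0.05). The difference between sinusoidal and capillary-like nuclei was an interaction with the mouse as a block. Shares were compared by an exact two-sided permutation test (scipy 1.17.1). Each library is a separate mouse, and the mice of a group differed by more than counting noise (chi-square per degree of freedom 7.61 for Ctrl, 6.56 for Pre-T, 14.03 for Post-T). Doublets were treated by the gate alone, since Scrublet (scanpy 1.11.5) marked 5 of 39012 nuclei and did not work.

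Named genes were, per comparison and without the 19 gate genes, up to 10 a direction with the largest log2 fold change among called genes with a mean of at least 10 CPM, groups without overlap and a log2 ratio to other nuclei of at least 1. Up to 5 a direction with a ratio under 0 and up to 4 called members of a list were added. The ratio is a mean over mice with 0.5 added to each count, so a mouse without UMIs enters it with a level above 0. A few genes counted in the totals are not reported here. Coordinates are those of GENCODE M21 on GRCm38.

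Alternatives were DESeq2 1.42.0, RLE factors, other count minimums, the fit on 2 groups, a replicate block, each mouse left out, stricter gates, thinning to 500 UMIs and a limit on hepatocyte UMIs. Tested on simulated counts of 16621 genes for Post-T against Ctrl, the fit recovered 71% of genes changed by 2 on the log2 scale and 85% of those changed by 3, with 4 false calls. For the difference between nuclei, on 17092 genes, it recovered 74% and 86%, with 3 false calls. The changed genes were drawn from those with higher counts only. In the first simulation each gene had the fitted spread of its level and none of its own, and all mice shared 1 profile apart from the changed genes. Its 4 false calls thus cannot tell how many the real test between groups makes. The second simulation used a small fixed spread and gave both kinds of nuclei of a mouse the same profile. The real mice varied more, so it cannot tell how many false calls the real test of the difference makes.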

Additional observations from a re-analysis of the deposited data

Results flagged for a closer look

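Each named gene was taken only in the comparison it was named for. By edgeR's test of the difference itself, 4 changed by a different amount in sinusoidal than in capillary-like nuclei of the same mice. The named results numbered 14 for Pre-T against Ctrl, 44 for Post-T against Ctrl and 34 for Post-T against Pre-T. Of all genes tested 0.07%, 0.581% and 0.188% passed. Naming required a called change in these same sinusoidal sums, which favors a larger change there, so the 4 are a description. Between Ctrl and Post-T, the change of Col4a2 was smaller in sinusoidal nuclei, with a difference of -1.23 on the log2 scale (SE 0.31, edgeR adjusted p = 0.0185). The change of Fabp4 was larger there by 1.24 (SE 0.33, edgeR adjusted p = 0.0347), and that of Il1r1 by 1.01 (SE 0.26, edgeR adjusted p = 0.0228). Between Pre-T and Post-T, Sema5a, a semaphorin, changed by 5.4 in sinusoidal and -0.31 in capillary-like nuclei, a difference of 5.31 (SE 0.54, edgeR adjusted p = 7.83e-19). In sinusoidal nuclei Sema5a was at 18.3 and 15.2 CPM in Ctrl, 12 and 0 in Pre-T and 198 and 123 in Post-T. The Pre-T values rest on few molecules, so the size of this change and of its p is uncertain.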

How the results depend on the processing

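Counts of called genes are given first for Pre-T and then for Post-T, each set against Ctrl, and last for the contrast of both Western diet groups (27, 292 and 104 as reported). They were 765, 1276 and 953 with no filter on low counts, and 0 (1587 at an unadjusted p under 0.05), 179 and 12 with a minimum of 10. At least 4 of the 7 endothelial genes gave 213, 885 and 403, and a margin of at least 3 UMIs gave 260, 744 and 451. For the first and the last comparison DESeq2 gave 96 and 182, RLE factors 45 and 163, and the fit on 2 groups 99 and 0 (1583 at an unadjusted p under 0.05). A limit of 3% hepatocyte UMIs, chosen after seeing the data because the planned 1% left no nucleus in Pre-T 2, gave 44 and 160. For Pre-T against Ctrl, thinning gave 182, and only genes higher in sinusoidal than in other nuclei gave 44. Leaving out 1 mouse gave 0 to 119, 0 to 560 and 0 to 322, and for the difference between nuclei 4 to 31, 16 to 395 and 16 to 210. The cause was not tested.

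With the replicate number as a replicate block the counts were 460, 966 and 674, and all calls of the fit without it were among them. Same-numbered mice did not deviate together (correlations of -0.159, 0.0822 and -0.00497 over 9853 genes), so the numbers do not pair the mice.

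The share of sinusoidal nuclei in Post-T minus Ctrl ranged from -4.53 to 2.501 percentage points with 1 mouse left out (2.501 without Post-T 1), and in Post-T minus Pre-T from -1.66 (without Post-T 2) to 5.37. The 92 named results kept their direction in all 1523 values under the alternatives and lost their call in 515. Most named genes were chosen for large changes and groups without overlap, so the kept direction was largely set by that choice and is no support. DESeq2 kept the call of 87 of 92 and RLE factors that of 92. No alternative without doublets was run, since the caller did not work. Depth limits Post-T 1 and Pre-T 1 most.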
